A study of Mus musculus with 24 samples.

Results

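*Mlkl*, *Tifa* and 5 further genes of the necroptosis pathway, *Ripk1*, *Ripk3*, *Casp8*, *Fadd* and *Cflar*, were followed through all 8 groups of the study. They are 7 of the 55487 genes listed in the value tables, and each has a single row in both tables, found by its gene symbol. The set was chosen by its expression values in sgCTCF and sgControl cells, which were known when it was proposed. That comparison is therefore described for the 7 genes without a test, while tests are given for the other comparisons and for genes outside the set.

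Necroptosis is a lytic, caspase-independent form of cell death. RIPK1 and RIPK3 are kinases that assemble downstream of TNF receptors and Toll-like receptors, and RIPK3 phosphorylates MLKL, the pseudokinase that then oligomerises and permeabilises the plasma membrane. Caspase-8, recruited through the adaptor FADD and held in check or redirected by its relative cFLIP (*Cflar*), cleaves the RIP kinases and so restrains this pathway, and haematopoietic cells that lack caspase-8 activity are known to die by necroptosis. TIFA is an adaptor with a forkhead-associated domain. It oligomerises when the kinase ALPK1 senses bacterial ADP-heptose, recruits TRAF6 and activates NF-κB, and it belongs to the inflammatory branch rather than to the necrosome itself.

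All cells came from lymphoid progenitor lines derived from the fetal liver of Rosa26-Cas9 knock-in mice and lacking *Ebf1*, so the controls were Ebf1-deficient and carried Cas9 as well. The progenitors (LPs) were kept on OP9 stroma, and Phase 1 cells had been stimulated through Notch on OP9-DLL4 stroma. A retrovirus delivered pooled sgRNAs against *Cbfb*, *Ctcf* or *Med12*, or an sgControl against luciferase, and transduced cells were sorted 5 days later by the human NGFR marker together with CD45. Experiment 1 has LPs and Phase 1 cells with sgControl or sgCbfb, and experiment 2 has LPs given sgControl or an sgRNA pool against each of the 3 genes. Each of the 8 groups holds 3 libraries. *Cbfb* encodes the shared partner of the RUNX factors, CTCF binds insulators and anchors chromatin loops, and MED12 is a subunit of the Mediator kinase module. The sorted cells are edited pools, which can hold unedited cells.

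Each library is 3′-end RNA-seq (QuantSeq), with 1363263 to 1743319 reads on genes in experiment 1 and 3354483 to 4326783 in experiment 2. Values are CPM, a gene's reads scaled to a fixed total per library, and a count of 0 allows up to 3 reads, that is 1.72 to 2.20 CPM in experiment 1 and 0.693 to 0.894 CPM in experiment 2, counting error only. A gene tested was called when its adjusted P was under 0.05, its group means were more than 2-fold apart and at least 1 of them was above 10 CPM. *Cbfb* mRNA fell with sgCbfb in LPs of both experiments, to 40.2 and 48.4 CPM from 86.5 and 114.3 CPM, whereas in Phase 1 cells it was 53.9 against 66.5 CPM with overlapping libraries. *Ctcf* mRNA was 391.0 ± 30.7 CPM with sgControl and 305.7 ± 29.96 CPM with sgCTCF (SD, n = 3), a limma log2 difference of -0.36 (adjusted P = 0.021). *Med12* was at 5.14 and 7.01 CPM with sgControl and sgMed12 and its mRNA does not check that label. These are mRNA levels only, and the authors report depletion of the CBFβ, CTCF and MED12 proteins in transduced LPs by immunoblot. The leukocyte gene *Ptprc* was at 338 CPM or more in every library, and *Ebf1* transcripts were still counted, at 143 to 403 CPM. Markers of OP9 stroma (8 genes) summed to 5.02 to 30.3 CPM with sgControl and 15.9 to 29.0 CPM with sgCTCF in experiment 2. The stromal genes *Col3a1* and *Dcn* had no reads in any library. The 5 stromal markers tested between sgCTCF and sgControl had a median log2 difference of 1.38 (-0.02 over all genes), and none passed.

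*Mlkl* (ENSMUSG00000012519) spans 111311797 to 111338177 of chromosome 8 (GRCm38, that is mm10) on the minus strand. *Tifa* (ENSMUSG00000046688) spans 127789805 to 127832164 of chromosome 3 on the plus strand. These are the pair with the lowest values under sgCTCF, so the DNA just upstream of their transcripts is shown, from the RefSeq promoter table on GRCm38.p6. *Mlkl* has 1 RefSeq start there and *Tifa* has 2. The sequences run 5′ to 3′ on the gene's strand, with the first annotated transcribed bases (30 at most) in capitals.
Mlkl, chr8:111338176-111338455, minus strand: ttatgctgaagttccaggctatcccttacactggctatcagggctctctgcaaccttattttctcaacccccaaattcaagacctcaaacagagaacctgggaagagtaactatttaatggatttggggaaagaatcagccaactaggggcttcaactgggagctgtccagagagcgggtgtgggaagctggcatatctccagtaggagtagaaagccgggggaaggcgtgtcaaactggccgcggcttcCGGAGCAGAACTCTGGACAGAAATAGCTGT
Tifa upstream start, chr3:127789622-127789834, plus strand: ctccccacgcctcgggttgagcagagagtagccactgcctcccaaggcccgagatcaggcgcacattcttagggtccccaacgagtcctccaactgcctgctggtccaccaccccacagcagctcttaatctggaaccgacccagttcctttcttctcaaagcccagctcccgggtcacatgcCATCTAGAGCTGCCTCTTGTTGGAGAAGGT
Tifa downstream start, chr3:127790407-127790684, plus strand: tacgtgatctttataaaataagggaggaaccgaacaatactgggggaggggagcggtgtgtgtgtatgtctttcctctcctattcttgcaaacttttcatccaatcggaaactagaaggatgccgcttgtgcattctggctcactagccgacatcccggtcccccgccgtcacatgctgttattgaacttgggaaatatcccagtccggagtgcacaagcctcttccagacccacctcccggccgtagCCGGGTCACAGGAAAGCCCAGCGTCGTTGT
To describe these windows, 6 short motifs were searched on both strands of the 300-base windows that run from 250 bases before each RefSeq start to 50 after it. The *Mlkl* window held none of them. The window of the upstream *Tifa* start held AGGGGGC, a core of the CTCF motif that 10.6% of all 32851 promoter windows hold, 25 bases past the RefSeq start, and TGCGGT, a RUNX motif form found in 6.45% of windows, 38 bases before it. The downstream *Tifa* window held an NF-κB-like motif (GGGA, any base, TTTCC), found in 0.411% of windows, 33 bases past its start. AGGTGGC (a second CTCF core, 6.15% of windows), TGTGGT (a second RUNX form, 16.8%) and an interferon response motif (GAAA, any pair of bases, GAAA; 3.44%) were in none of the *Mlkl* and *Tifa* windows. Of the other 5 genes, *Ripk3* held AGGGGGC and TGTGGT, *Casp8* held TGTGGT, *Ripk1* and *Cflar* each held the interferon response motif, and *Fadd* held none. The *Tifa* matches lie at or past the 3′ end of the stretches printed above, which stop before the windows do. A match gives letters in a window, not a bound site.

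In LPs with sgCTCF, *Mlkl* and *Tifa* each stood at their lowest levels in the study. *Mlkl* was at 10.3, 10.04 and 10.96 CPM in the 3 sgControl libraries of experiment 2 (39, 34 and 45 reads) and at 2.42, 1.11 and 3.70 CPM with sgCTCF (9, 4 and 16 reads). *Tifa* was at 10.3, 12.4 and 8.52 CPM with sgControl (39, 42 and 35 reads) and at 2.68, 1.67 and 2.54 CPM with sgCTCF (10, 6 and 11 reads). For both genes every sgCTCF library lay under all 21 other libraries of the study, whose lowest values were 5.14 CPM for *Mlkl* and 3.41 CPM for *Tifa*. The group means were 4.33-fold lower for *Mlkl* (2.41 ± 1.29 against 10.4 ± 0.474 CPM) and 4.53-fold lower for *Tifa* (2.30 ± 0.549 against 10.4 ± 1.94 CPM; SD, n = 3). As limma differences of log2(CPM + 1), where the added 1 shrinks the change of weakly expressed genes, these were -1.82 (SE 0.30) and -1.79 (SE 0.32). The 6 Notch-induced T-lineage markers also stood apart, with a summed level of 56.8 to 61.7 CPM with sgCTCF and 23.9 to 30.1 CPM with sgControl, of which *Tcf7* and *Hes1* were called higher (2 of 5 tested). The 5 B-lineage markers summed to 197.2 to 228.1 CPM with sgCTCF and 243.5 to 314.9 CPM with sgControl, without overlap. Of the 3 tested, 1 was called higher, and *Ebf1* was lower by adjusted P alone (188.5 against 276.0 CPM, limma adjusted P = 0.019). The 8 myeloid markers overlapped, at 48.8 to 75.3 and 63.6 to 80.3 CPM. The part of these cell types and of stroma in the *Mlkl* and *Tifa* values was not tested. In these bulk samples, fewer cells of a kind and less RNA per cell cannot be told apart.

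**Figure D1:**
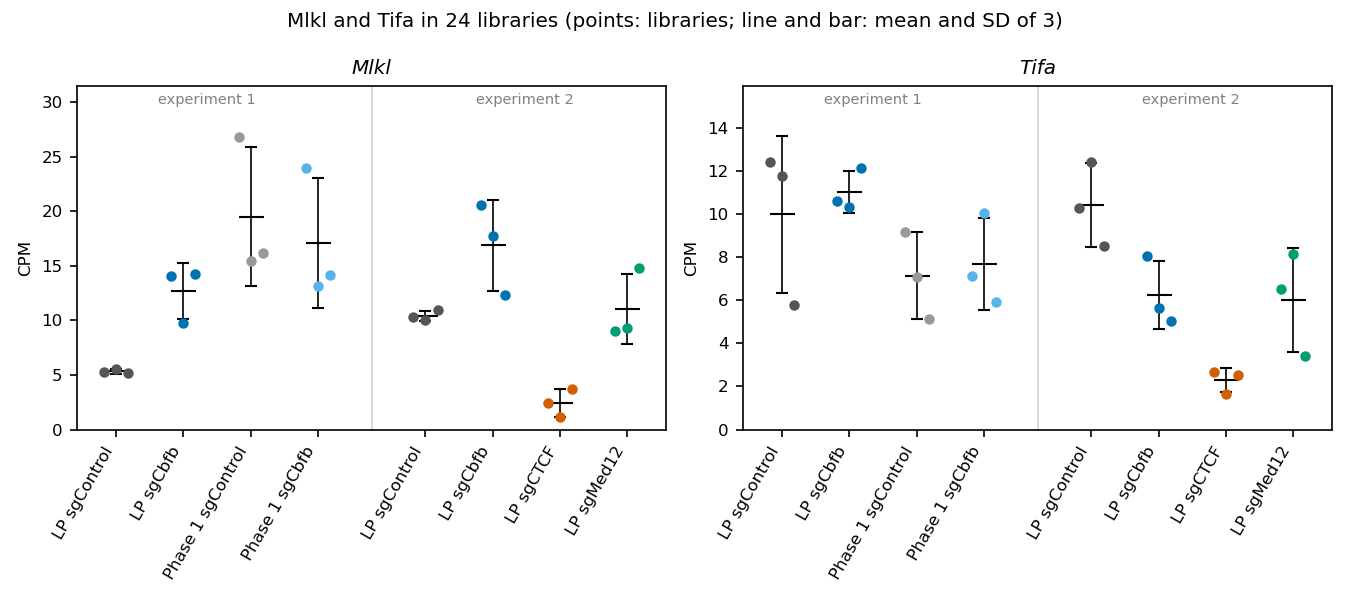
CPM of *Mlkl* and *Tifa* (vertical axes, linear from 0) in each library, by group on the horizontal axis, with points for libraries and lines for the mean and SD of 3 libraries. The sgCTCF libraries of *Mlkl* sit between 1.11 and 3.70 CPM and those of *Tifa* between 1.67 and 2.68 CPM, under all other libraries.

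Of the necrosome kinases, *Ripk1* was higher under sgCTCF, while the *Ripk3* libraries overlapped those of sgControl. *Ripk1* (chromosome 13, 34002363 to 34037147) was at 41.4, 40.2 and 44.6 CPM with sgControl and at 67.6, 67.7 and 63.8 CPM with sgCTCF. Its sgCTCF libraries were above all 21 others, of which the highest was 59.7 CPM, and the group mean was 1.58-fold higher (66.4 ± 2.23 against 42.0 ± 2.27 CPM; SD, n = 3). *Ripk3* (chromosome 14, 55784995 to 55788865) was at 30.1, 31.9 and 42.1 CPM with sgControl and at 33.5, 26.5 and 31.4 CPM with sgCTCF.

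The libraries of the caspase-8 arm overlapped between sgCTCF and sgControl. *Casp8* (chromosome 1, 58795374 to 58847503) was at 82.0, 73.2 and 80.4 CPM with sgControl and 82.4, 67.9 and 78.3 CPM with sgCTCF. *Fadd* (chromosome 7, 144577318 to 144582463) was at 20.04, 14.2 and 24.8 CPM against 14.8, 10.9 and 21.3 CPM. *Cflar* (chromosome 1, 58711508 to 58758884), which lies beside *Casp8* on the same strand, was at 29.3, 36.6 and 39.2 CPM against 42.1, 45.4 and 34.9 CPM. The log2 differences of *Ripk3*, *Casp8*, *Fadd* and *Cflar* ran from -0.33 to 0.22. Of the 13177 genes tested in this comparison, 2.43% were called. The groups did not overlap for 3 of the 7 genes, against 31.1% of all genes. These values chose the 7 genes, and nothing is read from that count.

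Reads of some members could come from overlapping genes, since the counting's use of strand is not stated. Exons of *Ripk1* share 241 bases with *Serpinb6a* on the opposite strand and 511 with the pseudogene *Gm17084* on the same strand. *Fadd* shares 239 bases with its antisense gene *Faddos*, and *Tifa* shares 105 with *Gm43654*, also on the opposite strand. *Mlkl*, *Ripk3*, *Casp8* and *Cflar* share no exon bases with another gene in GENCODE M21.

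**Figure D2:**
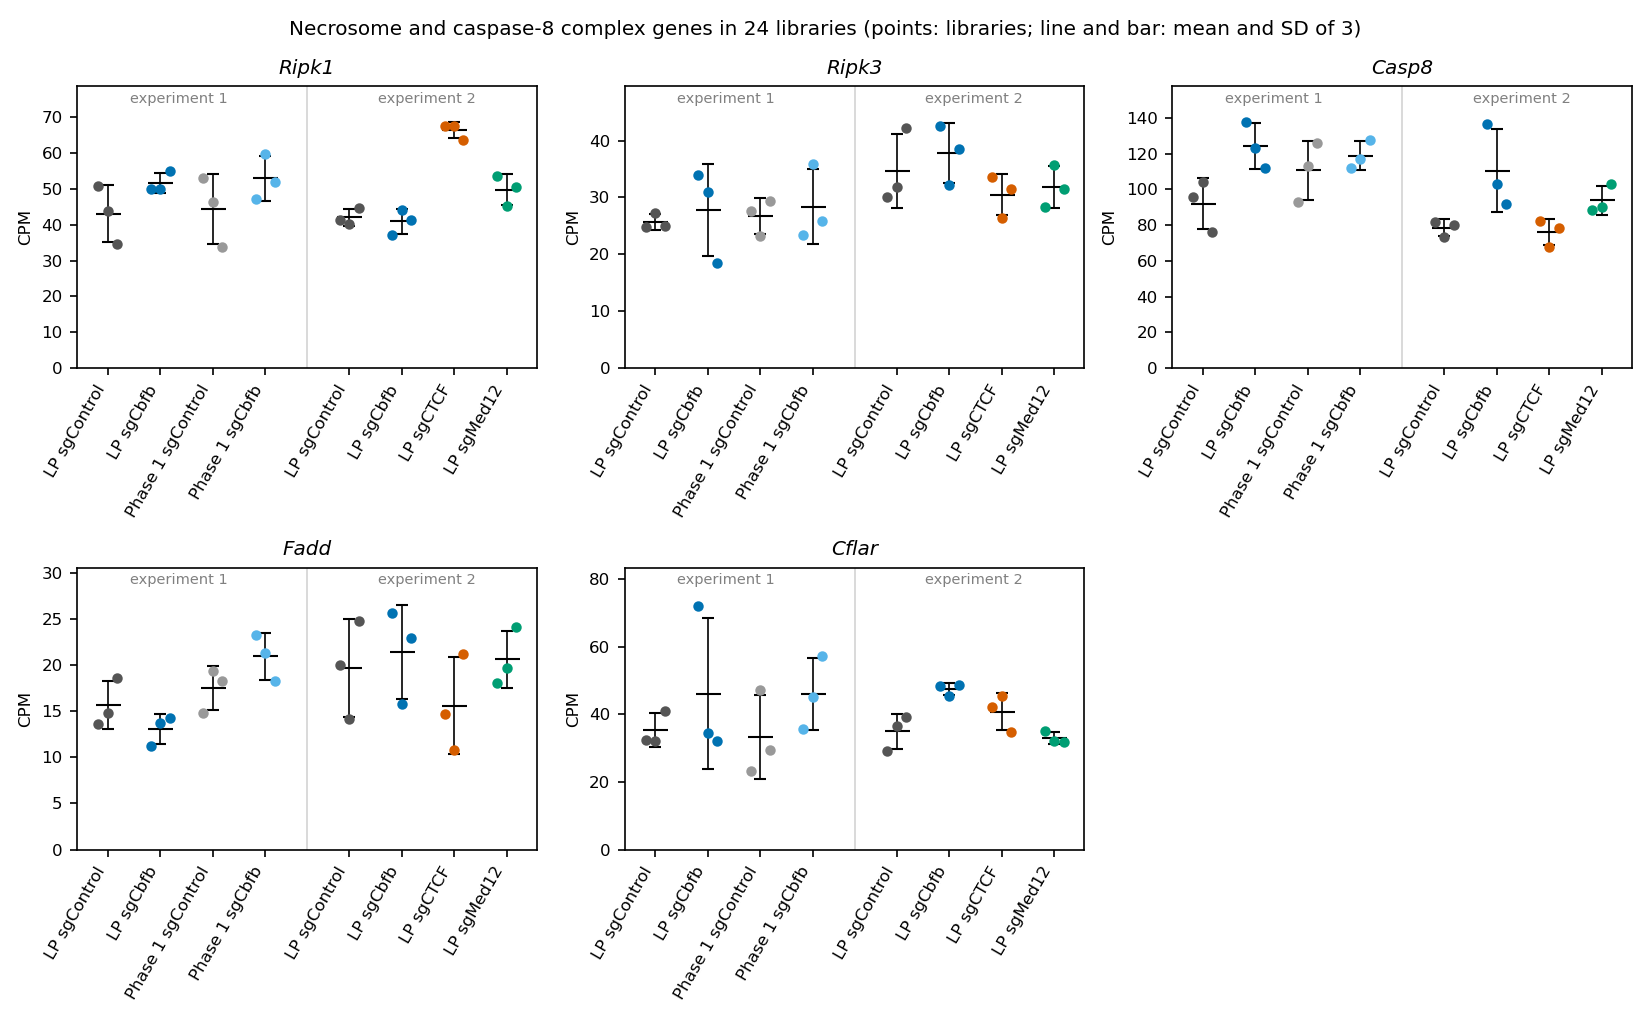
CPM of *Ripk1*, *Ripk3*, *Casp8*, *Fadd* and *Cflar* (vertical axes, linear from 0) in each library, by group, with points for libraries and lines for the mean and SD of 3. *Ripk1* with sgCTCF sits at 63.8 to 67.7 CPM, above the other libraries, while the groups of the other 4 genes overlap for sgCTCF and sgControl.

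*Mlkl* was higher in Notch-stimulated control cells than in control LPs of experiment 1. It was at 5.31, 5.57 and 5.14 CPM in the sgControl LPs of experiment 1 (9, 9 and 8 reads) and at 26.8, 15.5 and 16.1 CPM in the sgControl Phase 1 cells (38, 24 and 22 reads), and the groups did not overlap. The mean rose 3.65-fold, to 19.5 ± 6.37 from 5.34 ± 0.218 CPM (SD, n = 3). By limma this was a log2 difference of 1.65 (SE 0.39, 95% interval 0.84 to 2.46, Benjamini-Hochberg adjusted P = 0.010). *Mlkl* was the only member called in this comparison, where 3.39% of 13239 genes were called and 21.8% had groups that did not overlap. The call was also made by edgeR (quasi-likelihood test on reads recovered from the CPM, adjusted P = 0.0035) and by DESeq2 (adjusted P = 0.0023). It was lost without the sgControl Phase 1 library at 26.8 CPM (log2 difference 1.41, limma adjusted P = 0.054) and when only these 2 groups were fitted (limma adjusted P = 0.067).

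The other 6 members did not pass between sgControl Phase 1 cells and LPs, with limma adjusted P values from 0.39 for *Casp8* to 0.96 for *Ripk1*. *Tifa* was at 12.4, 11.8 and 5.78 CPM in LPs and 9.18, 7.10 and 5.13 CPM in Phase 1 cells, with overlapping libraries and a log2 difference of -0.40 (95% interval -1.31 to 0.51). *Ripk1*, *Ripk3*, *Casp8*, *Fadd* and *Cflar* differed by -0.13 (*Cflar*) to 0.27 (*Casp8*) on that scale. In the same comparison the Notch-induced genes *Hes1*, *Dtx1*, *Tcf7*, *Il2ra*, *Notch3* and *Gata3* were all called higher, and their summed level went from 37.8 to 54.9 CPM in LPs to 807.6 to 950.8 CPM in Phase 1 cells. Markers of myeloid cells (8 genes) summed to 69.3 to 90.9 CPM in LPs and 42.3 to 53.5 CPM in Phase 1 cells. The 5 B-lineage markers summed to 296.7 to 410.2 and 150.4 to 206.1 CPM, with 2 of the 3 tested lower by adjusted P. The part of these cell types in the *Mlkl* value was not tested.

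The stage difference of *Mlkl* was not called in sgCbfb cells, which shared no library with the sgControl comparison. *Mlkl* was at 14.1, 9.75 and 14.3 CPM in sgCbfb LPs and 23.99, 13.2 and 14.1 CPM in sgCbfb Phase 1 cells, so the groups overlapped, with a log2 difference of 0.37 (95% interval -0.43 to 1.18, limma adjusted P = 0.80). None of the 7 members was called, against 1.19% of all genes, and none passed with edgeR or DESeq2. *Fadd* was at 11.3, 13.8 and 14.3 CPM in sgCbfb LPs and 23.3, 21.4 and 18.3 CPM in sgCbfb Phase 1 cells, without overlap (log2 difference 0.64, limma adjusted P = 0.44). *Tifa* was at 10.6, 10.3 and 12.1 CPM against 7.13, 10.1 and 5.89 CPM, also without overlap (log2 difference -0.49, limma adjusted P = 0.75). Groups that did not overlap made up 18.9% of all genes in this comparison.

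The effect of sgCbfb was measured against sgControl in 3 settings, LPs of each experiment and Phase 1 cells. In LPs of experiment 1, *Mlkl* was 2.38-fold higher by the means (12.7 ± 2.56 against 5.34 ± 0.218 CPM; SD, n = 3) and the groups did not overlap, but it did not pass, with a log2 difference of 1.09 (95% interval 0.29 to 1.90, limma adjusted P = 0.18). In LPs of experiment 2, whose libraries are separate, it was at 20.6, 17.7 and 12.3 CPM with sgCbfb against 10.3, 10.04 and 10.96 CPM, again without overlap and 1.62-fold higher by the means (log2 difference 0.62, 95% interval -0.0046 to 1.24, limma adjusted P = 0.21). In Phase 1 cells the levels were 17.1 ± 5.98 CPM with sgCbfb and 19.5 ± 6.37 CPM with sgControl, with overlap (log2 difference -0.18, 95% interval -0.99 to 0.62, limma adjusted P = 0.87). The difference between the stages in the sgCbfb effect on *Mlkl* was -1.28 (95% interval -2.42 to -0.14) and did not pass (limma interaction, adjusted P = 0.39). No member had a called interaction, against 1.19% of genes. The stage comparison in sgControl cells, the sgCbfb comparison in LPs and this interaction share the 3 sgControl LP libraries of experiment 1. They are therefore not independent. Those libraries held *Mlkl* at a mean of 5.34 CPM, against 10.4 CPM in sgControl LPs of experiment 2, without overlap. For 3 libraries against 3, the exact permutation test cannot give a two-sided P under 0.1.

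*Casp8*, the apical caspase that cleaves RIPK1 and RIPK3, rose with sgCbfb in LPs of experiment 2. It was at 82.0, 73.2 and 80.4 CPM with sgControl and 136.5, 103.0 and 92.0 CPM with sgCbfb. The groups did not overlap, and the mean rose 1.41-fold (limma log2 difference 0.47, SE 0.13, adjusted P = 0.020), which is under the fold needed for a call. This adjusted P passed with edgeR (0.013) and DESeq2 (0.010), and missed 0.05 without moderated variances (0.094), without the sgCbfb library at 136.5 CPM (0.18; log2 difference 0.31) and without the sgControl library at 73.2 CPM (0.086). *Casp8* was 1 of 7 members to pass by limma adjusted P in this comparison, where 12.5% of all genes passed. In experiment 1 *Casp8* was at 95.6, 104.0 and 76.4 CPM against 137.5, 123.3 and 112.0 CPM, without overlap (log2 difference 0.44), and did not pass (limma adjusted P = 0.22). Among Phase 1 cells the level was 119.0 ± 8.07 CPM with sgCbfb and 110.7 ± 16.6 CPM with sgControl (SD, n = 3), with overlap. Several marker sets stood apart in the same comparisons. In LPs of experiment 1, sgCbfb against sgControl, the 8 myeloid markers summed to 127.9 to 144.6 against 69.3 to 90.9 CPM, the 6 T-lineage markers to 68.3 to 79.9 against 37.8 to 54.9 CPM, the 5 B-lineage markers to 165.8 to 215.1 against 296.7 to 410.2 CPM, and the 8 stromal markers to 2.14 to 4.23 against 7.07 to 9.91 CPM. In experiment 2 the T-lineage sum was 41.1 to 76.96 against 23.9 to 30.1 CPM, the B-lineage sum 163.96 to 217.7 against 243.5 to 314.9 CPM, and that of 7 lymphoid progenitor markers 1197 to 1390 against 1628 to 1933 CPM, while the myeloid (74.1 to 125.2 CPM) and stromal (2.02 to 14.3 CPM) sums overlapped the controls. By limma adjusted P in experiment 1, 0 of 4 myeloid and 0 of 2 stromal markers tested passed. There 1 of 6 T-lineage markers was higher and 1 of 3 B-lineage markers lower. The stromal sums with sgCbfb there rest on few reads, since 3 reads are 1.72 to 2.20 CPM. The part of these cell types in the *Casp8* and *Mlkl* values was not tested.

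The other members under sgCbfb did not pass. In experiment 2 *Cflar* was at 29.3, 36.6 and 39.2 CPM with sgControl and 48.3, 45.3 and 48.6 CPM with sgCbfb, without overlap (log2 difference 0.44, limma adjusted P = 0.064). In experiment 1 its sgCbfb LP libraries spread from 32.1 to 71.9 CPM and overlapped the controls. *Tifa* was at 8.05, 5.63 and 5.04 CPM with sgCbfb in experiment 2, all under its sgControl libraries (log2 difference -0.66, 95% interval -1.32 to -0.0078, limma adjusted P = 0.20). In experiment 1 it was at 10.6, 10.3 and 12.1 CPM with sgCbfb, which overlapped the controls (log2 difference 0.19, and -0.13 without the sgControl library at 5.78 CPM). *Ripk1*, *Ripk3* and *Fadd* overlapped the controls in both experiments and in Phase 1 cells. Across the 7 members, 0 were called by limma in LPs of experiment 1 (1.69% of all genes), 0 in Phase 1 cells (3.52%) and 0 in LPs of experiment 2 (4.33%). By adjusted P alone, with limma, edgeR or DESeq2, *Casp8* in experiment 2 was the only member to pass, where limma passed 2.85%, 5.97% and 12.5% of all genes in these comparisons. Groups that did not overlap were 2 of 7 members in LPs of experiment 1 (17.5% of all genes) and 4 of 7 in LPs of experiment 2 (30.5%).

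In sgMed12 LPs no member was called by limma, against 1.03% of genes, and edgeR and DESeq2 passed none. *Tifa* had the largest difference, at 6.50, 8.14 and 3.41 CPM against 10.3, 12.4 and 8.52 CPM with sgControl. The groups did not overlap, and the log2 difference was -0.75 (95% interval -1.41 to -0.10, limma adjusted P = 0.15). It was called when the sgMed12 library at 8.14 CPM was left out (log2 difference -0.97, limma adjusted P = 0.043), and the difference shrank to -0.45 without the library at 3.41 CPM (limma adjusted P = 0.51). The T-lineage markers summed to 42.1 to 54.5 CPM with sgMed12 and 23.9 to 30.1 CPM with sgControl, and the lymphoid progenitor markers to 1231 to 1541 and 1628 to 1933 CPM, and their part in the *Tifa* value was not tested. *Mlkl* was at 9.04, 9.30 and 14.8 CPM and overlapped the controls (log2 difference 0.04, 95% interval -0.58 to 0.67). *Ripk1*, at 53.7, 45.3 and 50.5 CPM, and *Casp8*, at 88.4, 90.1 and 103.0 CPM, lay above all sgControl libraries without passing (limma adjusted P = 0.29 and 0.26). Groups that did not overlap were thus 3 of 7, against 21.3% of all genes. The sgCbfb, sgCTCF and sgMed12 comparisons of experiment 2 share the 3 sgControl libraries, which were also used in choosing the genes. The sgCbfb and sgMed12 P values of the members in experiment 2 are therefore not independent of that choice.

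**Figure D3:**
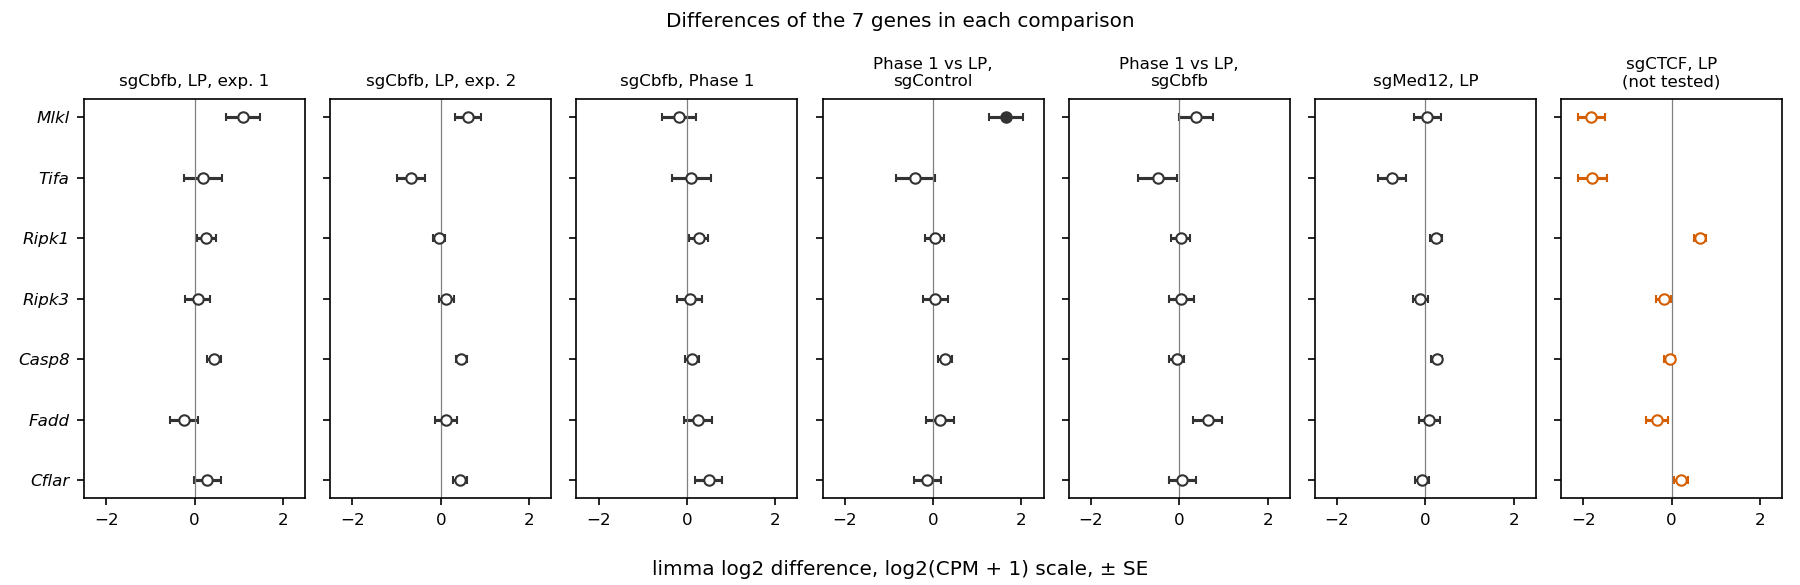
Differences of the 7 genes (rows) in 7 comparisons (panels) as limma log2 differences on the log2(CPM + 1) scale with their SE on the horizontal axes, filled where a gene was called. *Mlkl* in sgControl Phase 1 cells against LPs, at 1.65, is the only filled point, and the sgCTCF panel, which was not tested, holds the lowest values, -1.82 for *Mlkl* and -1.79 for *Tifa*.

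Ordered by group mean, the members differed in how far they ranged. The highest group mean of *Mlkl* was 8.09 times its lowest and that of *Tifa* 4.79 times, while the same ratio was 1.44 to 1.64 for the other 5. The lowest mean of both *Mlkl* and *Tifa* is that of sgCTCF, whose values chose the genes, so nothing is read from this contrast. In the other groups the means ran from 5.34 to 19.5 CPM for *Mlkl* and from 6.01 to 11.01 CPM for *Tifa*. In experiment 1 the *Mlkl* order was sgControl Phase 1 cells, sgCbfb Phase 1 cells, sgCbfb LPs and sgControl LPs, and only the last step was free of overlap. In experiment 2 it was sgCbfb (16.9 CPM), sgMed12 (11.03 CPM), sgControl (10.4 CPM) and sgCTCF (2.41 CPM), where again only the last step was. The *Tifa* order in experiment 2 was sgControl (10.4 CPM), sgCbfb (6.24 CPM), sgMed12 (6.01 CPM) and sgCTCF (2.30 CPM), in which sgCbfb and sgMed12 overlapped. In experiment 1 all neighbours in the *Tifa* order overlapped, between 7.14 and 11.01 CPM. *Ripk1* separated only in experiment 2, with sgCTCF above sgMed12 (49.8 CPM) and sgMed12 above sgControl (42.0 CPM). For *Ripk3*, *Fadd* and *Cflar* each group overlapped the next in both experiments, and for *Casp8* the only step without overlap was sgMed12 over sgControl.

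The sgControl LPs of the experiments, normalised as separate tables and so not tested against each other, held *Mlkl* at 5.34 and 10.4 CPM, a 1.95-fold difference with no overlap. *Ripk3* was also higher in experiment 2, at 34.7 against 25.7 CPM, without overlap. The other 5 members overlapped between the experiments in these cells, with *Tifa* at 9.98 and 10.4 CPM.

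The genes that act with these members were counted from 4 lists. Of 41 partners of the TNF and Toll-like receptor death pathways, 38 were tested under sgCTCF, 1 was called higher and 0 lower, and 3 passed by adjusted P alone, all higher, with a median log2 difference of 0.07 (-0.02 over all genes). The called gene was *Fas*, the death receptor that recruits FADD and caspase-8, which rose from 2.85 ± 0.375 to 11.6 ± 1.29 CPM (SD, n = 3; limma log2 difference 1.71, adjusted P = 0.0016). *Peli1*, an E3 ubiquitin ligase known to act on RIP kinases, rose from 119.4 to 221.5 CPM (limma adjusted P = 1.5e-06), under the fold for a call. *Zbp1*, a nucleic acid sensor that can activate RIPK3, had at most 1 read in each sgControl library and rose to 2.24 ± 0.591 CPM, with at most 10 reads (limma adjusted P = 0.0071). These 3 were the list's genes that passed. Over all genes 6.13% passed in that direction, and 2.43% were called in either direction. *Fasl* had at most 3 reads in any sgCTCF library.

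Of 20 genes around TIFA and NF-κB, 19 were tested under sgCTCF and none was called. By adjusted P, 2 were higher and 1 lower (6.13% and 4.2% of all genes). The lower one was *Tifab*, a TIFA-related protein known to restrain TRAF6 signalling, which fell from 37.9 ± 4.26 to 22.1 ± 3.10 CPM (limma log2 difference -0.76, adjusted P = 0.0036). *Ccl5*, a chemokine gene, rose from 1 read in each sgControl library to 8.70 ± 2.27 CPM (limma adjusted P = 4.3e-06), and the adaptor gene *Traf1* rose from 0.789 to 3.57 CPM (limma adjusted P = 0.041). *Alpk1*, the kinase upstream of TIFA, had no reads in the sgControl and sgCTCF libraries. *Traf6*, which acts downstream of TIFA, was at 34.2 and 33.3 CPM (limma adjusted P = 0.94).

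Among 24 other executioners of cell death, 22 were tested under sgCTCF and none was called, with 2 higher and 2 lower by adjusted P (6.13% and 4.2% of all genes). Those higher included *Diablo*, which antagonises inhibitors of apoptosis, from 31.5 to 45.7 CPM (limma adjusted P = 0.028). Lower were *Htra2*, a mitochondrial protease, from 47.8 to 29.6 CPM (limma adjusted P = 0.0075), and *Ninj1*, which mediates plasma membrane rupture, from 60.9 to 39.1 CPM (limma adjusted P = 0.039). Of 20 interferon-induced genes, 19 were tested and 2 were called higher, where 2.43% of all genes were called in either direction. *Mlkl* and *Zbp1* are known to belong to this class in other cells. The called genes included *Ifih1*, a sensor of viral RNA (9.49 to 30.4 CPM), and *Irf7* also passed by adjusted P. The other 16 did not pass, and the list's median log2 difference was 0.28 (-0.02 over all genes). Any relation of the *Mlkl* values to these genes was not tested.

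In sgCbfb LPs of experiment 2, 15 of the 19 interferon-induced genes tested were called higher and 0 lower, where 4.33% of all genes were called. The list's median log2 difference was 2.28 (-0.01 over all genes), beside an *Mlkl* difference of 0.62 that did not pass. *Zbp1* rose there from at most 1 read to 8.51 ± 1.92 CPM (limma adjusted P = 5e-07). Of the 38 death pathway partners tested, *Tnf*, the ligand itself, was the only one called (4.48 to 13.1 CPM, limma adjusted P = 0.0041). *Nfkbia*, the NF-κB inhibitor and target, was called higher with sgCbfb in both experiments and in Phase 1 cells, from 425.7 to 1358.7 CPM in LPs of experiment 2. *Aim2*, an inflammasome sensor, rose from 5.39 to 11.9 CPM. In LPs of experiment 1, 1 of 18 interferon-induced genes was called (*Rsad2*), against 1.69% of all genes, and the list's median was 0.54. In Phase 1 cells none was, against 3.52% of all genes, and *Tnfrsf1a*, the TNF receptor, rose from 21.2 to 43.5 CPM (limma adjusted P = 0.012).

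With Notch stimulation of sgControl cells, in which *Mlkl* rose, *Gbp7* was the only one of 18 interferon-induced genes called (75.7 to 154.6 CPM). Of all genes, 3.39% were called there. The list's median log2 difference was 0.71 (-0.07 over all genes). None of 39 death pathway partners was called, though *Fasl*, the ligand of FAS, passed by adjusted P, with no reads in LPs and 5.08 ± 1.76 CPM in Phase 1 cells (SD, n = 3; limma adjusted P = 0.0031). *Nfkbia* fell from 565.9 to 204.5 CPM, *Bcl3* fell from 24.6 to 9.40 CPM, *Nfkb2* rose from 7.10 to 20.1 CPM and *Ccl5* rose from 1.25 to 19.7 CPM. In sgMed12 LPs, where 1.03% of all genes were called, the called genes of the 4 lists were *Bcl3* (20.3 to 10.0 CPM), the pore-forming *Bax* (40.7 to 86.3 CPM) and *Bst2* (100.5 to 286.9 CPM).

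**Figure D4:**
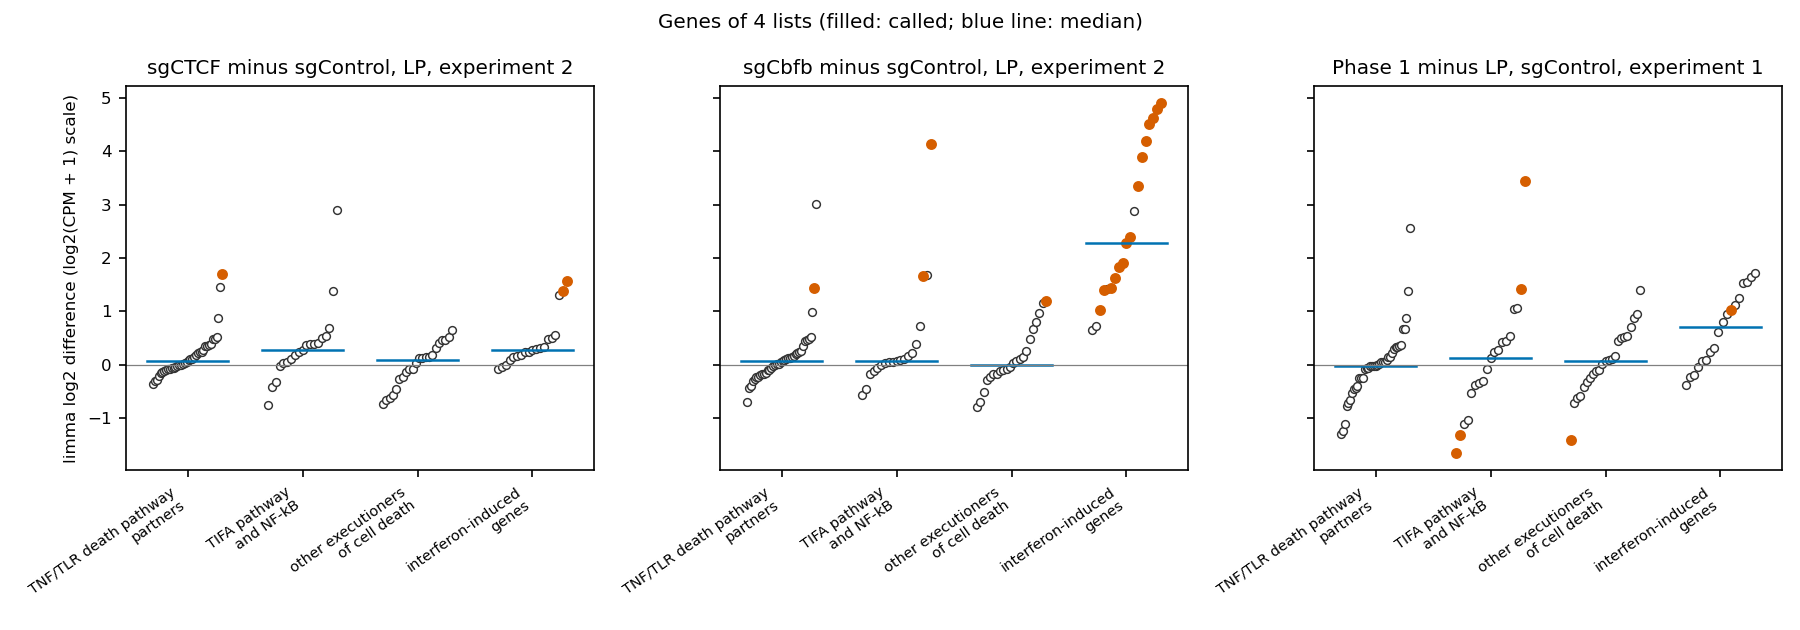
Limma log2 differences on the log2(CPM + 1) scale (vertical axis) for the genes of 4 lists in 3 comparisons (panels), filled where called, with a line at each list's median. Under sgCTCF the medians lie between 0.07 and 0.28 and 3 genes are filled, among them *Fas* and *Ifih1*, while under sgCbfb 15 interferon-induced genes are.

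Some neighbouring genes on the chromosome fell with sgCTCF. Of 31 annotated genes whose start sites lie within 500 kb of that of *Mlkl*, 15 were tested, none was called, and 3 passed by adjusted P alone, all lower (4.2% of all genes). These were *Rfwd3*, 38.0 kb away, which fell from 87.3 ± 5.82 to 62.4 ± 6.04 CPM (SD, n = 3; limma log2 difference -0.48, adjusted P = 0.011), *Glg1*, 79.0 kb away, which fell from 257.8 ± 18.1 to 167.5 ± 3.26 CPM (-0.62, limma adjusted P = 0.00023), and *Znrf1*, 197.9 kb away on the other side, which fell from 78.9 ± 6.16 to 53.1 ± 3.96 CPM (-0.56, limma adjusted P = 0.0071). The median over the 15 was -0.23 (-0.02 over all genes). Around *Tifa*, 4 of 32 annotated genes were tested, and *Ap1ar*, on the opposite strand and 47.7 kb away by its start site, fell from 57.4 ± 8.31 to 37.2 ± 2.33 CPM (log2 difference -0.60, limma adjusted P = 0.013). The bodies of *Ap1ar* and *Tifa* overlap without shared exon bases. *Fam241a*, 106.5 kb away, was at 6.84 and 3.01 CPM and did not pass (log2 difference -1.001, limma adjusted P = 0.064).

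In the other comparisons fewer or other neighbours passed. Between sgControl Phase 1 cells and LPs, where *Mlkl* rose, none of its 15 neighbours passed by adjusted P. With sgMed12 *Glg1* was lower (log2 difference -0.35, limma adjusted P = 0.041). With sgCbfb *St3gal2*, 418.3 kb from *Mlkl*, passed in all 3 settings, higher in each, and *Znrf1* was higher in LPs of experiment 2, at 125.9 against 78.9 CPM. None of the *Tifa* neighbours passed outside the sgCTCF comparison.

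**Figure D5:**
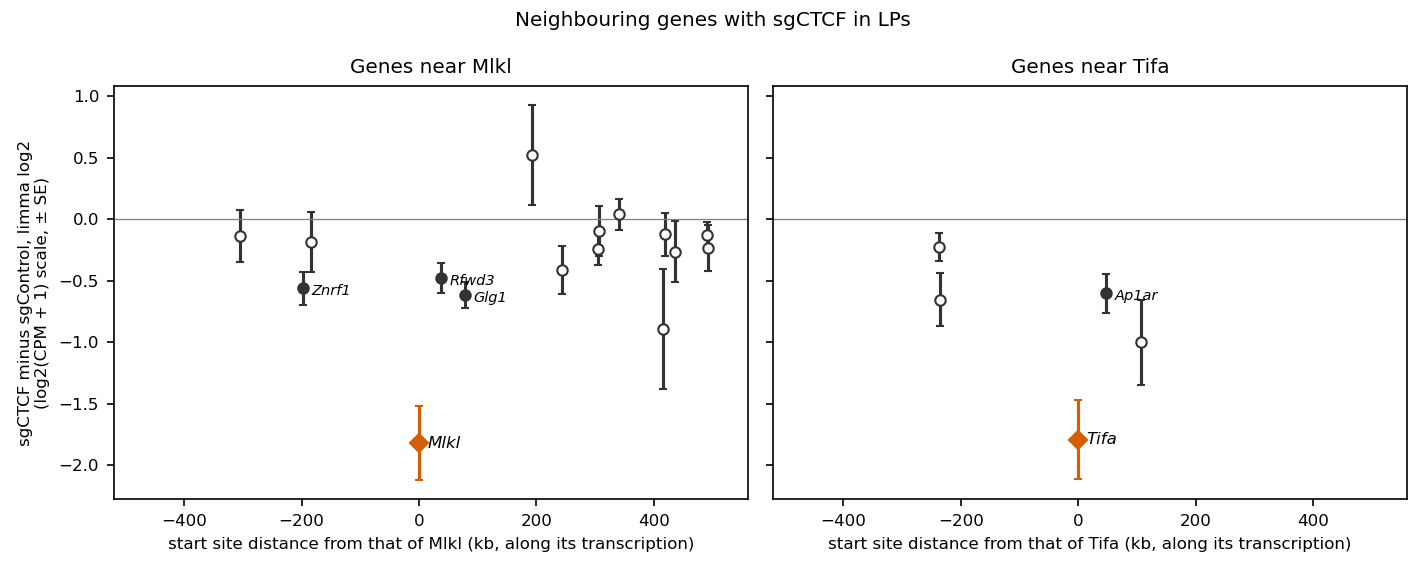
Limma log2 differences between sgCTCF and sgControl LPs with their SE (vertical axis) against distance from the start site of *Mlkl* (left) or *Tifa* (right) in kb along its transcription, filled circles for neighbours with an adjusted P under 0.05 and diamonds for *Mlkl* and *Tifa*. *Rfwd3*, *Glg1*, *Znrf1* and *Ap1ar* lie between -0.48 and -0.62, above the -1.82 of *Mlkl* and the -1.79 of *Tifa*.

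Genes most like the pair were ranked by Pearson's r of log2(CPM + 1) over the 12 libraries of experiment 2, among the 8912 other genes that reached 10 CPM on average in any group. These values include the sgCTCF libraries that chose the genes, and are a description. For *Mlkl* the genes most alike included *Ybx3* (r = 0.95), *Ogfrl1* (0.94), *Acot2* (0.93) and *Rnpepl1* (0.93). *Acot2* was at 25.0, 29.2, 10.4 and 25.6 CPM and *Ybx3* at 435.2, 503.1, 245.9 and 467.1 CPM with sgControl, sgCbfb, sgCTCF and sgMed12. For *Tifa* they were *R3hcc1* (r = 0.95), *Glg1* (0.95), *Hmga1* (0.94), *Ramp1* (0.91) and *Pcif1* (0.89). *R3hcc1* was at 58.0, 45.0, 18.2 and 40.4 CPM in the same order, and *Glg1* is the neighbour of *Mlkl* described above. *Mlkl* and *Tifa* themselves had r = 0.70, and *Tifa* ranked 511 among the genes most like *Mlkl*.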

How the data were processed

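QuantSeq values of 24 libraries (3 per group, groups and replicates from the labels) were analysed. The authors processed 75-base single reads with fastp, then aligned to mm10 using STAR, and deposited a value per gene scaled to a fixed total per library. The counter, annotation, strand use and tool versions are not given in the sources used here. The deposited values are named TPM but are CPM, whole multiples of a step whatever the gene's length, and dividing by it gave whole reads (within 0.01) for 99.7% or more of the values of each library. The last row, which names no gene and holds the value of 1 read, was left out. Of 55487 genes, 55141 are in GENCODE M21 (GRCm38), used for positions.

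Genes reaching 1 CPM in 3 or more libraries entered limma 3.58.1 on log2(CPM + 1), all 4 groups of an experiment sharing a fit, with trended variances and Benjamini-Hochberg adjustment. Calls needed adjusted P under 0.05, group means more than 2-fold apart and at least 1 of them above 10 CPM; for the interaction, adjusted P under 0.05 and any group averaging above 10 CPM. The 7 genes, the lists and the tests were chosen with earlier results of these data known. Named genes are the members, the targeted genes, called genes of the lists, neighbours within 500 kb, and the 5 most alike genes for *Mlkl* and for *Tifa*. List genes that passed by adjusted P alone, *Traf6*, *Alpk1* and *Fasl* were named after their values were seen. Some genes that the rule names are not reported here. Alternatives were pseudocounts of 0.1 and 5, filters, median-of-ratios scaling, edgeR 4.0.16 with TMM and DESeq2 1.42.0 on recovered reads, the replicate number as a block, and each library left out. The fit was tested on simulated data. Replicates were described as biologically independent, with no culture named in the labels, so P values measure the spread between these samples. R 4.3.3, Python 3.11.15, pandas 2.3.3, numpy 2.4.6 and matplotlib 3.10.9 were used.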

Additional observations from a re-analysis of the deposited data

How the results depend on the processing

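The number of members called between sgControl Phase 1 cells and LPs was 1 (*Mlkl*), 0 when only these 2 groups were fitted and 0 to 1 when a library was left out (0 without Phase 1 sgControl replicate 1). In sgCbfb LPs of experiment 2 it was 0, and 1 (*Casp8*) by adjusted P alone. In sgMed12 LPs it was 0, and 0 to 1 when a library was left out (1, *Tifa*, without sgMed12 replicate 2). The same count under sgCTCF was 2 (1 to 2 when a library was left out, 1 without sgControl replicate 2). It follows from the choice of the genes on those values, is no test of them and says nothing of stability. The other comparisons kept a count of 0 in every alternative run.

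The *Mlkl* and *Tifa* differences under sgCTCF ran from -1.07 for each with a pseudocount of 5 to -2.22 and -2.14 with 0.1. Median-of-ratios scaling moved the median of all genes by under 0.1 in each comparison. With the replicate number as a block the counts stayed at 1 for sgControl Phase 1 cells against LPs and 0 for the other comparisons tested. Whether the numbers pair the samples is not stated in the labels. Deviations of same-numbered libraries had a median correlation of 0.0034 in experiment 1 and 0.041 in experiment 2. For differently numbered libraries it was -0.0060 and -0.017. Of 18 same-numbered pairs per experiment, 1 and 2 were above 0.1, against 0 of 36 others in each. A weak pairing is therefore not excluded. Of 49 member differences tested, 24 turned sign when a library was left out, 0 of them called, among them *Mlkl* with sgCbfb in Phase 1 cells (-0.44 to 0.06) and with sgMed12 (-0.17 to 0.16). *Mlkl* and *Tifa* rest on 4 to 69 and 6 to 42 reads per library, which limits the precision of their values.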
